A study of Drosophila melanogaster with 40 samples.

Results

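The left arm of chromosome 2 of Drosophila melanogaster (2L) carries 3465 of the 17490 genes in the count table, and 1383 of them are known there only by a CG number. These 1383 genes are the rows on 2L whose name is CG followed by digits, without the few that the selection rule names and leaves out. They make up 39.9% of the genes of the arm and 7.91% of the table. The rule used name and position, and no expression value. The other 2082 genes of the arm and the 6006 CG-numbered genes of other chromosomes served for comparison.

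The study expressed feline MYBPC3, which encodes a thick-filament protein of heart muscle, in the fly heart. The question here was how CG-numbered genes along 2L differ between the transgenic lines and the control in each sex, stage and exercise group. Flies of the WT, A31P and R820W lines carried a UAS-MYBPC3 transgene in its wild-type form or with the named substitution (w1118/y, w; Chr2/+; UAS-MYBPC3/TinCΔ4-Gal4). The control flies, attP2, carried the empty landing site instead (w1118/y, w; Chr2/+; attP2/TinCΔ4-Gal4), so the heart driver TinCΔ4-Gal4 was present in all groups. Transgene, landing site and driver lie on the third chromosome, not on 2L. Each genotype was sampled as larvae, as nonexercised and exercised females and as nonexercised and exercised males, the adults at 1 week of age and exercised by repeated shaking down in a vial. The 20 groups held 2 libraries each, 40 in all, and each library came from pooled whole animals, of which the heart is a small part. Each transgene was represented by 1 line, and whether the lines and attP2 differ in DNA sequence on 2L was not tested.

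CG numbers are the names that the annotation of the fly genome gives to predicted genes, and a gene keeps its number as its only name until a study of it proposes another. Many such genes are expressed in the male germ line, where a large share of fly genes with narrow expression is active, and others encode members of large families of digestive enzymes, dehydrogenases and transporters. Neighbouring genes on the arm often arose by local duplication, so that adjacent CG numbers can belong to 1 family.

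Of the 1383 genes, 1368 were matched by gene identifier in Ensembl, 1353 with identical coordinates, and 1366 were annotated as protein coding. Ensembl gave 246 of them another symbol. They lay on both strands (711 plus, 672 minus), between positions 7529 and 23313578 of 2L in the coordinates of the deposited table, with a median exonic length of 1405 bases. The 650 genes that overlap another gene (47.0%) share genomic sequence with it, and since the strand setting of the counting is not given in the sources used here, their reads cannot always be told apart from those of the other gene.

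The libraries held between 18493813 and 26917796 counts on genes, of which the CG-numbered genes of 2L took 2.71% to 6.16%. Enough reads for a test were present in males for 1252 (nonexercised) and 1260 (exercised) of the genes, in females for 894 and 854, and in larvae for 1185. In the fit over all 32 adult libraries 1292 were tested and 91 were not. Across all fits 64 genes were never tested, 15 of them had no more than 3 counts in any library, and 1 had no count at all. In the exercised males, A31P replicate 2 and R820W replicate 2 held RNA of yolk and eggshell genes at a summed 6077 and 497 CPM (counts scaled to equal library size), against 9.78 to 16.9 in the other 6 libraries. In nonexercised males attP2 replicate 1 had 121 CPM of these genes against 9.88 to 14.3. All CPM were normalized within a set (1 stage, sex and exercise group), so levels from different sets were not scaled together. The heart markers tin, Hand and prc summed to 1.33 to 14.0 CPM in these whole-body libraries, 2 of the 3 were tested over adults and none was called.

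Genes are called differentially expressed below at an adjusted p under 0.05 (edgeR's quasi-likelihood test, adjusted over all genes tested) and an absolute log2 fold change (Log2FC) over 0.5, and Log2FC is given ± SE. Over all adult sets, 73 of the 1292 tested genes were called in WT, 54 higher and 19 lower than in attP2. Without single libraries this count fell to 40 (26 higher, WT exercised males replicate 2), 41 (24 higher, attP2 nonexercised males replicate 1), 47 (32 higher, attP2 exercised males replicate 1) and 48 (32 higher, WT nonexercised males replicate 1). The 73 genes called in WT with all libraries were 5.65% of those tested, against 1.99% of all 14457 genes tested. In A31P 43 were called, 28 higher and 15 lower, or 3.33% against 1.32% of all genes. In R820W 46 were called, 31 higher and 15 lower, or 3.56% against 1.24%. Over all genes the shares called higher were 1.47%, 0.782% and 0.706% in WT, A31P and R820W and those called lower 0.519%, 0.54% and 0.533%. The other genes of 2L were called at 4.32% in WT, 4.06% in A31P and 3.32% in R820W. The CG-numbered genes of other chromosomes were called at 1.62%, 0.868% and 0.738%. Those on the X chromosome were called at 1.43% in WT and not at all among 1117 in A31P or R820W. In A31P those of 2R, 3L and 3R were called at 1.67%, 1.14% and 0.608%. The median Log2FC of the tested genes was 0.07 in each of the 3 lines, beside 0.03, 0.04 and 0.02 over all genes.

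**Figure D1:**
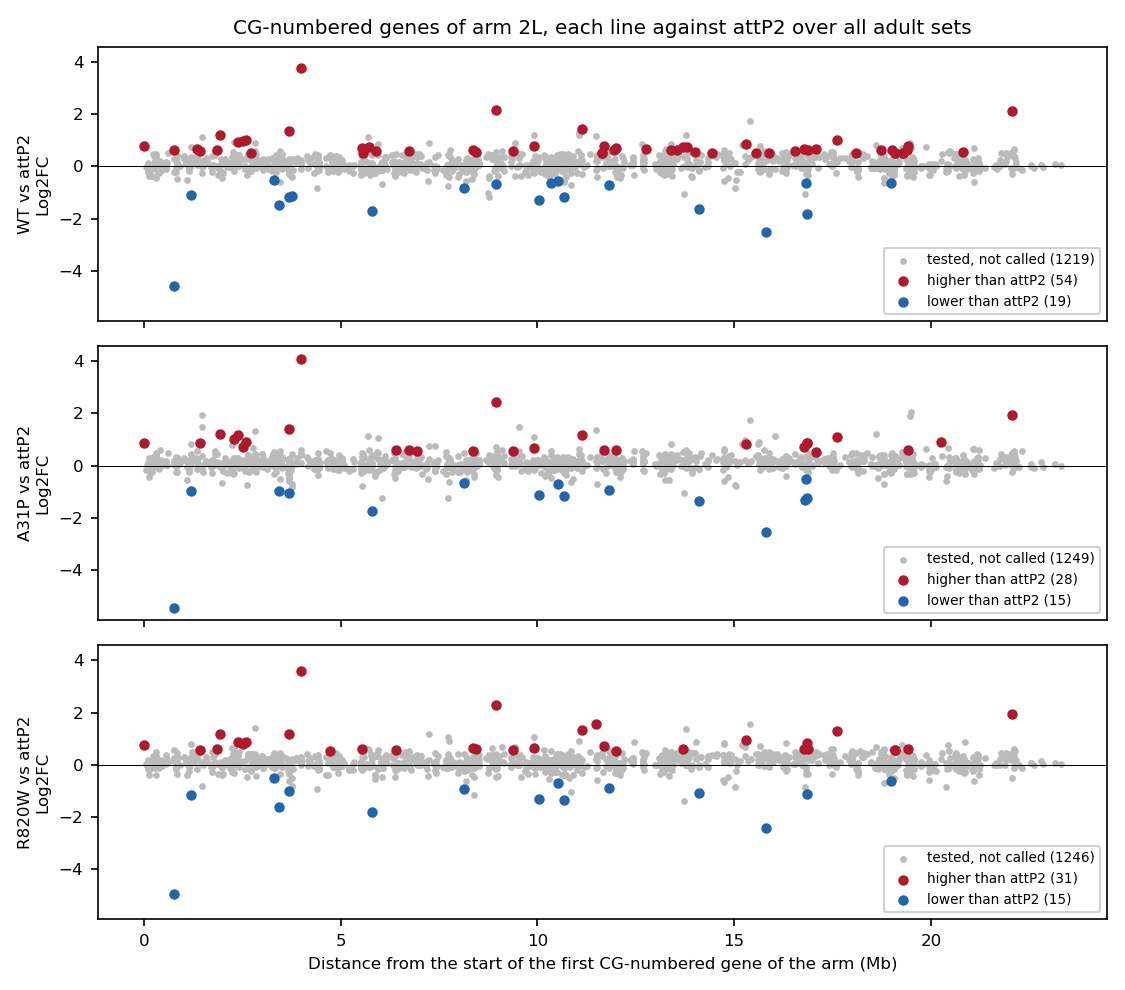
Log2FC against attP2 over all adult sets (vertical axis) for each of the 1292 tested CG-numbered genes by its distance in Mb from the first of them (horizontal axis), 1 panel per line. Filled points are called genes (54 higher and 19 lower in WT, 28 and 15 in A31P, 31 and 15 in R820W), which lie along the whole arm among uncalled neighbours.

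A total of 82 genes (6.35%, against 2.77% of all genes) were called in at least 1 line over the adult sets, 62 of them higher and 20 lower. The Log2FC exceeded 1 in absolute value for 23, of which 11 were higher and 12 lower. The 3 lines were compared with the same attP2 libraries, so their values are given side by side and are not independent. The genes described next were called in each line under every alternative tried for the adult fits, unless an exception is given.

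The lowest relative level was that of CG13946 (FBgn0040725, 2L 776536 to 776941, plus strand), a single-exon gene of 406 bases. In nonexercised males its level was 3.51 and 6.80 CPM in the attP2 libraries, 0.179 and 0.263 in WT, 0.0907 and 0.137 in A31P and 0.0941 and 0.261 in R820W. In exercised males it was 5.23 and 6.83 CPM in attP2, 0.306 and 0.0905 in WT, 0.17 and 0.0422 in A31P and 0.0483 and 0.1 in R820W. Both attP2 libraries stood far above all 6 libraries of the lines in each male set, and the gene was almost silent outside males, with at most 2 counts in any female or larval library. The male line libraries held 1 to 7 counts each, and the ratio of pooled levels was 28.1 in nonexercised males (95% exact interval 18.0 to 45.8) and 48.4 in exercised males (29.7 to 84.3). These intervals cover counting error only. Over all adult sets Log2FC was −4.56 ± 0.40 in WT (adjusted p = 5.72e-09), −5.44 ± 0.43 in A31P (3.93e-10) and −4.94 ± 0.42 in R820W (2.5e-09).

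CG42876 (FBgn0262150, 2L 15810571 to 15812141, minus strand) was the next lowest. In nonexercised males it had 8.40 and 3.75 CPM in attP2 and 0.594 to 1.00 in the 6 libraries of the lines. In exercised males it had 7.87 and 11.9 CPM in attP2 and 1.36 to 2.14 in the lines, and in exercised females 1.35 and 1.31 against 0.226 to 0.675. The groups did not overlap in any adult set. The Log2FC over all adult sets was −2.53 ± 0.27, −2.54 ± 0.28 and −2.43 ± 0.27 in WT, A31P and R820W (adjusted p = 3.47e-07, 3.74e-07 and 8.43e-07).

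CG11034 (FBgn0031741, 2L 5805395 to 5809063, plus strand) belongs to the dipeptidyl peptidase 4 family, serine peptidases that cut dipeptides from the amino end of other peptides. In nonexercised males its level was 39.8 and 44.9 CPM in attP2, 8.98 and 7.90 in WT, 6.49 and 7.31 in A31P and 5.74 and 7.78 in R820W. In exercised males it was 49.2 and 49.4 CPM in attP2 and 9.13 to 11.5 in the lines. In nonexercised females it was 30.5 and 45.0 CPM against 13.2 to 17.7, in exercised females 29.7 and 30.1 against 15.5 to 19.7, and in larvae 46.1 and 36.5 against 14.1 to 35.6. The lines thus lay below attP2 in each of the 5 sets, with the widest gaps in males. Over all adult sets the Log2FC of CG11034 was −1.72 ± 0.19 in WT, −1.74 ± 0.19 in A31P and −1.80 ± 0.19 in R820W (adjusted p = 5.92e-07, 3.74e-07 and 3.41e-07). For the mean of the 3 lines CG11034 was called in nonexercised males (Log2FC −2.53 ± 0.11), exercised males (−2.29 ± 0.08) and nonexercised females (−1.28 ± 0.15), while in exercised females the value was −0.69 ± 0.10 with an adjusted p of 0.064.

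CG7300 (FBgn0032286, 2L 10695000 to 10698043, minus strand, 1 exon) was lower in adults of both sexes. In nonexercised females it had 44.0 and 40.4 CPM in attP2, 15.2 and 14.7 in WT, 20.6 and 20.8 in A31P and 11.7 and 17.3 in R820W. In exercised females it had 16.6 and 21.2 CPM in attP2 against 3.79 to 7.98 in the lines, in nonexercised males 43.5 and 35.6 against 15.7 to 24.5, and in exercised males 43.2 and 43.1 against 21.0 to 27.2. No library of the lines reached an attP2 library in these 4 sets. For the mean of the 3 lines CG7300 was called in all 4 adult sets, with Log2FC of −1.36, −1.77, −1.0 and −0.87 in the order above. These calls were held under 6 of 12 alternatives in each female set, and under 12 of 12 (nonexercised) and 11 of 13 (exercised) in males. In exercised females the call was lost with the replicate number as a block, and leaving out either attP2 library ended it in both female sets and in exercised males. So did leaving out any A31P or WT library in nonexercised females, and A31P replicate 1 or either R820W library in exercised females. In larvae attP2 had 13.1 and 34.9 CPM and the lines 13.3 to 58.8, so the groups overlapped. CG7300 overlaps a noncoding gene on the opposite strand.

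Other genes lower in the lines had levels at which the groups also stood apart in most sets. CG33301 (FBgn0053301, 2L 10049580 to 10051201, plus strand) had 36.8 and 39.6 CPM in attP2 exercised males against 12.8 to 19.7 in the lines, and 25.3 and 24.8 in nonexercised females against 7.20 to 14.8. Its Log2FC over all adult sets was −1.27, −1.13 and −1.33 in WT, A31P and R820W (SE 0.14 in each). CG16704 (FBgn0031558, 2L 3692123 to 3692587, minus strand) encodes a protein of the Kunitz family of protease inhibitors. It had 24.9 and 17.7 CPM in attP2 nonexercised males against 6.11 to 10.7 in the lines, and 13.2 and 13.0 in nonexercised females against 4.26 to 6.76, with a Log2FC over all adult sets of −1.18, −1.04 and −1.0 (SE 0.13). CG16704 was far more abundant in larvae, at 89.3 and 101 CPM in attP2, and there the lines (62.7 to 156) overlapped attP2.

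CG2772 and CG18301, both of the acid lipase family, fell over all adult sets. CG2772 had 9.42 and 10.5 CPM in attP2 exercised males against 3.09 to 5.92 in the lines, and 4.13 and 5.99 against 1.17 to 4.29 in nonexercised males, where 1 library of A31P lay within the attP2 range. The Log2FC of CG2772 was −1.46 ± 0.19, −0.97 ± 0.18 and −1.64 ± 0.19 in WT, A31P and R820W. CG18301 had 64.6 and 81.8 CPM in attP2 nonexercised males against 42.3 to 52.2 in the lines, with a Log2FC of −0.54, −0.69 and −0.69 (SE 0.14), and its call in WT was held under 31 of 37 alternatives. CG18641, of the lipase family, changed the other way, from 6.99 and 7.27 CPM in attP2 exercised males to between 13.9 and 15.5 in the lines (Log2FC 0.93, 1.16 and 0.88, SE 0.19).

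CG32984 (FBgn0052984, 2L 8964982 to 8967035, plus strand) was the gene with the lowest adjusted p among those higher in the lines. In nonexercised females it had 0.91 and 1.21 CPM in attP2, 4.30 and 4.85 in WT, 6.72 and 9.06 in A31P and 5.74 and 8.55 in R820W. In exercised females it had 0.51 and 0.844 CPM in attP2 and 1.84 to 3.40 in the lines. In nonexercised males it had 1.47 and 0.692 CPM in attP2, 4.51 and 3.90 in WT, 4.58 and 4.52 in A31P and 5.13 and 5.56 in R820W, and in exercised males 0.621 and 1.00 in attP2 against 3.58 to 5.66. All 24 adult libraries of the lines lay above all attP2 libraries of their set. Log2FC over all adult sets was 2.16 ± 0.18 in WT, 2.42 ± 0.18 in A31P and 2.29 ± 0.18 in R820W (adjusted p = 3.31e-09, 9.53e-11 and 4.65e-10). In larvae no library held more than 4 counts of CG32984.

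The gene just upstream of it on the same strand, CG32985 (2L 8962533 to 8964620), has the same number of exons, 3, and a like exonic length of 1962 bases against 1960. CG32985 was a male gene, at 28.5 and 30.3 CPM in attP2 nonexercised males and 25.0 to 32.2 in the lines. In nonexercised females it had 0 and 1 counts in attP2 and 4 to 18 in the lines, a ratio of pooled levels of 18.9 (95% exact interval 3.27 to 758), which was not called (adjusted p = 0.357). Whether reads were divided between the neighbours was not tested.

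CG43773 (FBgn0264295, 2L 4007690 to 4007984, plus strand), a gene of 295 bases, had the largest fitted increase at very low levels. In adults each attP2 library held 0 to 2 counts of CG43773, while the lines held 4 to 17 in nonexercised males and 6 to 33 in exercised males. Pooled over libraries, the level of CG43773 in the lines was 18.7 times that of attP2 in nonexercised males (95% exact interval 3.22 to 749) and 16 times in exercised males (5.37 to 78.7). The fitted Log2FC over adults was 3.75 ± 0.61, 4.10 ± 0.60 and 3.57 ± 0.62 (adjusted p = 0.000271, 5.06e-05 and 0.000801) and is no bound at such counts. In larvae the order of the groups was the reverse, with 1.12 and 1.35 CPM of CG43773 in attP2 and 0 to 0.56 in the lines, a difference that was not called.

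Genes expressed in males alone, or almost so, made up a large share of those higher in the lines. CG34173 (FBgn0085202, 2L 22053834 to 22054302, minus strand) had 1.09 and 2.42 CPM in attP2 nonexercised males, 5.94 and 4.0 in WT, 4.31 and 4.34 in A31P and 4.8 and 3.69 in R820W. In exercised males it had 0.673 and 1.04 CPM in attP2 and 4.85 to 7.24 in the lines, and at most 1 count was found in a female library. Its Log2FC over all adult sets was 2.12 ± 0.28, 1.94 ± 0.29 and 1.93 ± 0.29 (adjusted p = 6.82e-05, 0.000203 and 0.000258). The same order was seen in larvae, at 0.449 and 0.15 CPM in attP2 and 0.486 to 1.58 in the lines.

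CG31867 (FBgn0051867, 2L 11144579 to 11145417, minus strand) overlaps Gyc32E on the same strand, so reads of both genes may be shared. It had 4.89 and 6.97 CPM in attP2 nonexercised males against 13.4 to 16.8 in the lines, and 7.56 and 8.27 in exercised males against 13.9 to 19.9. The Log2FC of CG31867 was 1.43, 1.15 and 1.31 (SE 0.14). CG15357 had 3.46 and 4.44 CPM in attP2 nonexercised males and 7.65 to 9.16 in the lines, with a Log2FC of 1.22, 1.20 and 1.16 (SE 0.20). Both were at or below 3 counts in every female library.

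**Figure D2:**
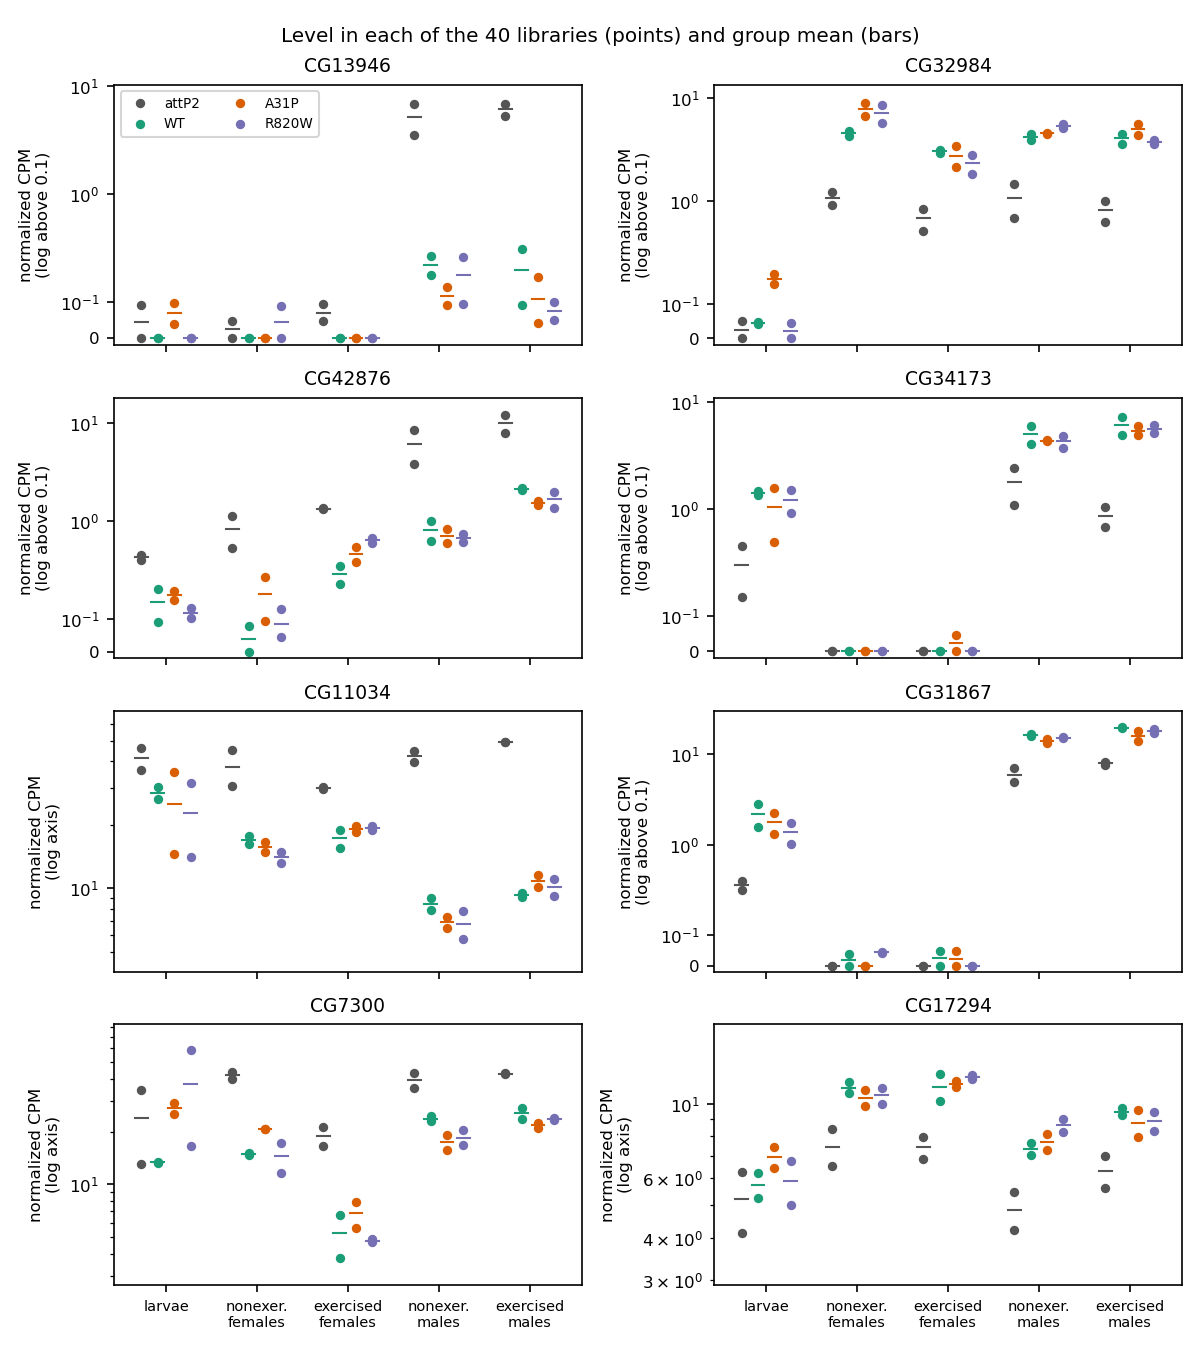
Normalized CPM (vertical axes, logarithmic, with a linear part below 0.1 where libraries are at 0) of 8 genes in each of the 40 libraries, by set along the horizontal axis. Points are libraries, colours are the 4 genotypes and bars are the means of 2 libraries. CG13946, CG42876, CG11034 and CG7300 lie lower in the lines than in attP2 in adult males, and CG32984, CG34173, CG31867 and CG17294 lie higher.

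Other genes with a Log2FC over 1 were less abundant or less stable. CG43165 had 2.74 and 2.93 CPM in attP2 exercised males against 3.91 to 8.83 in the lines, and 0.371 and 0.141 in exercised females against 0.943 to 1.28 (Log2FC 1.36, 1.41 and 1.17, SE 0.25). CG15395, with at most 1 count in a female library, had 7.66 and 7.75 CPM in attP2 exercised males against 11.9 to 15.9 in the lines (1.02, 0.91 and 0.89, SE 0.16). CG43054, likewise absent from females, had 0.932 and 1.67 CPM in attP2 exercised males against 2.45 to 4.16, and its calls in WT (1.02) and A31P (1.08) were held under 19 and 18 of 37 alternatives.

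CG16879 was lower in adults of both sexes, with 2.17 and 1.48 CPM in attP2 exercised males against 0.48 to 1.06 in the lines (Log2FC −1.63, −1.35 and −1.07). CG31958, which Ensembl lists as a pseudogene, was called in WT (−1.13 ± 0.27) under 31 of 37 alternatives. It had 3.05 and 2.89 CPM in attP2 exercised males and 1.27 and 1.63 in WT. CG43355, which overlaps sala on the same strand, was called in R820W (1.57 ± 0.41, adjusted p = 0.0343) under 30 of 37 alternatives, from 1 and 2 counts in attP2 nonexercised males to between 7 and 16 in the lines. CG16995, of the CAP family of secreted proteins, was called in A31P (1.04 ± 0.27) under 26 of 37 alternatives, with 1.62 and 1.65 CPM in A31P exercised males against 0.673 and 0.631 in attP2.

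Some genes were near the limit of detection in 1 arm of a set. In exercised females CG3117 had no count in either attP2 library and 5 to 13 in those of the lines, at least 2.85-fold higher with 3 counts per library as the floor. In exercised females CG18477 had 3 and 2 counts in attP2 and 6 to 19 in the lines, a ratio of pooled levels of 5.01 (95% exact interval 2.05 to 15.9). In nonexercised females CG33003 had 1 and 0 counts in attP2 and 6 to 11 in the lines, a ratio of 14.9 (2.56 to 602). None of these was called, and larvae of attP2 had 9.20 and 9.77 CPM of CG3117 without such a gap (lines 6.81 to 11.2). Opposite gaps were also found. CG12517 had 4 and 10 counts in attP2 larvae and 0 to 2 in the lines. CG3544 had 8 and 4 counts in attP2 exercised females against 0 to 1, and CG42587 6 and 6 in attP2 nonexercised males against 0 to 2. CG15145 in nonexercised females and CG42460 and CG4580 in exercised males also had the lines at the floor.

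Most increases were smaller than these. CG17294 (FBgn0032032, 2L 8377035 to 8378206, plus strand) had 8.38 and 6.53 CPM in attP2 nonexercised females against 9.86 to 11.6 in the lines, 7.98 and 6.85 in exercised females against 10.2 to 12.3, 5.46 and 4.21 in nonexercised males against 7.06 to 9.03, and 6.99 and 5.6 in exercised males against 7.96 to 9.69. The change was small, 0.62 in WT, 0.57 in A31P and 0.64 in R820W on the log2 scale (SE 0.07), but no library of the lines overlapped attP2 in an adult set. CG10399, which encodes the HMG-CoA lyase of ketone body formation and leucine breakdown, was called in A31P (0.54 ± 0.08), with values of 0.38 in WT and R820W that fell short of the fold threshold. Its level in A31P did not pass the test against WT. CG4594, of the enoyl-CoA isomerase family of fatty acid oxidation, had a Log2FC of 0.77, 0.68 and 0.63 (SE 0.10).

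CG7311, a glycerol-3-phosphate dehydrogenase of the mitochondrial type, had 60.3 and 79.8 CPM in attP2 nonexercised males and 98.4 to 108 in the lines, and was called in WT (Log2FC 0.74) and, under 35 of 37 alternatives, in R820W (0.60), with 0.50 in A31P. CG10859, an intermediate chain of axonemal dynein, the motor of the sperm tail and other motile cilia, had 84.6 and 116 CPM in attP2 nonexercised males against 134 to 158 in the lines. CG10859 was called in WT (0.64 ± 0.13), with 0.45 in A31P and 0.48 in R820W. CG9961, a paralog of phosphoglycerate kinase of glycolysis, was called in WT at 0.53, and its call was held under 28 of 37 alternatives.

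Sex-limited expression was measured by the ratio of mean CPM in males to that in females. A small constant was added to both means, so genes near 0 in both sexes do not pass as sex-limited. Over 10-fold higher in males were 400 of the 1292 tested genes (31%), against 17.8% of all genes tested. Among the genes higher in WT, whose number fell to as few as 24 without 1 library, it was 43 of 54 (79.6%). It was 13 of 28 among those higher in A31P (46.4%) and 16 of 31 in R820W (51.6%). Over all genes of the table called higher it was 158 of 212 in WT, 37 of 113 in A31P and 45 of 102 in R820W. Among the CG-numbered genes of other chromosomes, 65 higher in WT were above the ratio and 10 at or under it. Of the 20 CG-numbered genes of 2L lower in at least 1 line, 5 (25.0%) had a ratio over 10. One of the lower male-limited genes was CG45011, with 20.1 and 18.7 CPM in attP2 nonexercised males against 9.04 to 12.3 in the lines and 19.9 and 18.9 in exercised males against 8.28 to 11.9 (Log2FC −0.70, −0.94 and −0.89, SE 0.13).

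Above this male-to-female ratio of 10 the median Log2FC was 0.35 (WT), 0.22 (A31P) and 0.29 (R820W). In WT 48 of the 400 were called (12.0%), compared with 5.15% of 1263 CG-numbered genes of other chromosomes above the same ratio, whose median was 0.38. In A31P it was 16 (4% against 0.554%) and in R820W 19 (4.75% against 0.871%). Among the 892 genes at a ratio of 10 or under the calls were 25 in WT (2.80% against 0.554% on other chromosomes), 27 in A31P (3.03% against 0.963%) and 27 in R820W (3.03% against 0.698%). The other genes of 2L were called at 10.7%, 7.73% and 7.73% above the ratio and at 3.15%, 3.38% and 2.52% at or under it. In each of these 6 comparisons the share called was larger among the CG-numbered genes of 2L than among those elsewhere, and the shares of the other genes of the arm lay on either side of it. These differences in share were not tested.

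Testis markers were measured in the same libraries. All 11 markers (structural genes of sperm such as dj and the Mst84D cluster, and betaTub85D) were tested over the adult sets and none was called, with 9 at an unadjusted p under 0.05 in WT, 1 in A31P and 6 in R820W. Their median Log2FC was 0.36 in WT (range 0.23 to 0.49), 0.13 in A31P (−0.02 to 0.34) and 0.28 in R820W (0.10 to 0.36). Summed over the markers, nonexercised males had 1495 and 2027 CPM in attP2 and 1931 to 2152 in the lines, and exercised males 2012 and 2161 in attP2 and 2066 to 2748 in the lines. In females the sum was between 0 and 1.79 CPM. The part of these values in the male-limited genes was not tested, and in whole animals fewer cells of a type and less RNA per cell cannot be told apart. CG34173, CG31867 and CG15357, with Log2FC over 1, lay above the range of the markers. They were named for their large values in these data, so this order follows from the choice. The 8 accessory gland markers had median Log2FC of 0.02, −0.15 and −0.19, and none was called (0, 1 and 2 at an unadjusted p under 0.05).

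By position, the 82 called genes fell in 21 of the 24 bins of 1 Mb along the arm. The most, 8, lay in each of the bins at 11 to 12 Mb (of 49 tested, 16.3%) and 16 to 17 Mb (of 56, 14.3%). In the first of these, 7 of the 8 were higher and CG45011 was lower. The higher ones were CG31867, CG43355, CG6614, CG12307, CG4988, CG16964 and CG18789, with largest Log2FC among the lines from 0.52 to 1.57. Among the other genes of these bins 6 of 70 and 2 of 66 were called. The bin at 19 to 20 Mb held 7 called of 62, all higher, and that at 10 to 11 Mb held 4 of 98, all lower, CG7300 and CG33301 among them. No gene was called among 51 tested at 7 to 8 Mb, 35 at 21 to 22 Mb or 2 at 23 to 24 Mb. With bins of 0.5 Mb the called genes were found in 36 of 47 bins, and with bins of 2 Mb in all 12.

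**Figure D3:**
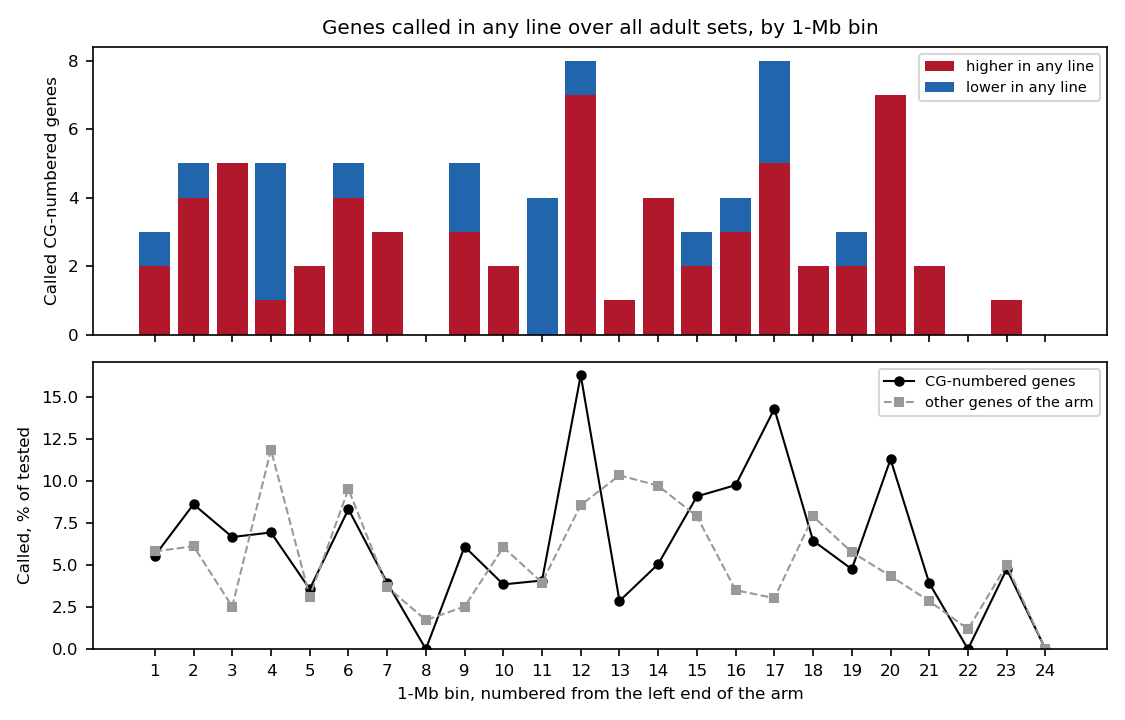
Upper panel: number of CG-numbered genes called in at least 1 line per 1 Mb bin (horizontal axis, bins 1 to 24 from the left end). Bars of lower genes are stacked on those of higher genes. Lower panel: percent of tested genes called in each bin for CG-numbered genes and for the other genes of 2L. The counts reach 8 in bins 12 and 17, and 3 bins hold none.

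The called genes lay a median of 95.3 kb from the nearest other called gene, while tested genes were spaced at a median of 6.94 kb. Within 10 kb of another called gene were 15 genes and within 50 kb 28, and 21 were over 200 kb from any other. Directly adjacent in the order of tested genes were 15, in 7 runs of at most 3 genes. The 100 kb with the most called genes, picked after the values were seen, reached from 16791568 to 16891239 on 2L. It held 15 tested CG-numbered genes, of which 7 were called, 4 higher and 3 lower. Of 9 other tested genes there, SclB was called.

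The called genes of this stretch moved in both directions. Among them CG31810, CG31809 and CG6012 are neighbours of the same family. CG17928 (0.66, 0.71 and 0.61, SE 0.11) was higher in all 3 lines. CG31810 and CG31809 are neighbouring paralogs of the short-chain dehydrogenase family (2L 16849018 to 16852368 and 16853620 to 16858714, both minus), among which reads may have been divided. CG31810 was higher in A31P (0.88) and R820W (0.83, SE 0.17) with 0.57 in WT, and CG31809 in A31P (0.87 ± 0.23), a call held under 22 of 37 alternatives. CG6012, the next gene on the same strand (2L 16860029 to 16861489) and of the same family, was lower. It had 7.61 and 7.83 CPM in attP2 exercised males against 1.18 to 3.24 in the lines, 3.51 and 3.98 in nonexercised males against 0.737 to 2.04, and 15.3 and 14.3 in larvae against 5.06 to 9.56. Its Log2FC was −1.82 ± 0.27 in WT, −1.25 ± 0.25 in A31P and −1.13 ± 0.25 in R820W.

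Also in this stretch, CG13283, a neprilysin-like metallopeptidase (Nepl9 in Ensembl), had 22.7 and 25.1 CPM in attP2 exercised males against 12.1 to 15.5 in the lines. CG13283 was called lower in WT (−0.64) and A31P (−0.52), with −0.35 in R820W (SE 0.14), and its call in A31P was held under 16 of 37 alternatives. CG13272 was called lower in A31P (−1.33 ± 0.35, adjusted p = 0.0398), a call held under 20 of 37 alternatives. CG34313 was called higher in WT (0.63) and R820W (0.60, SE 0.12), and it overlaps CG31743 on the same strand.

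**Figure D4:**
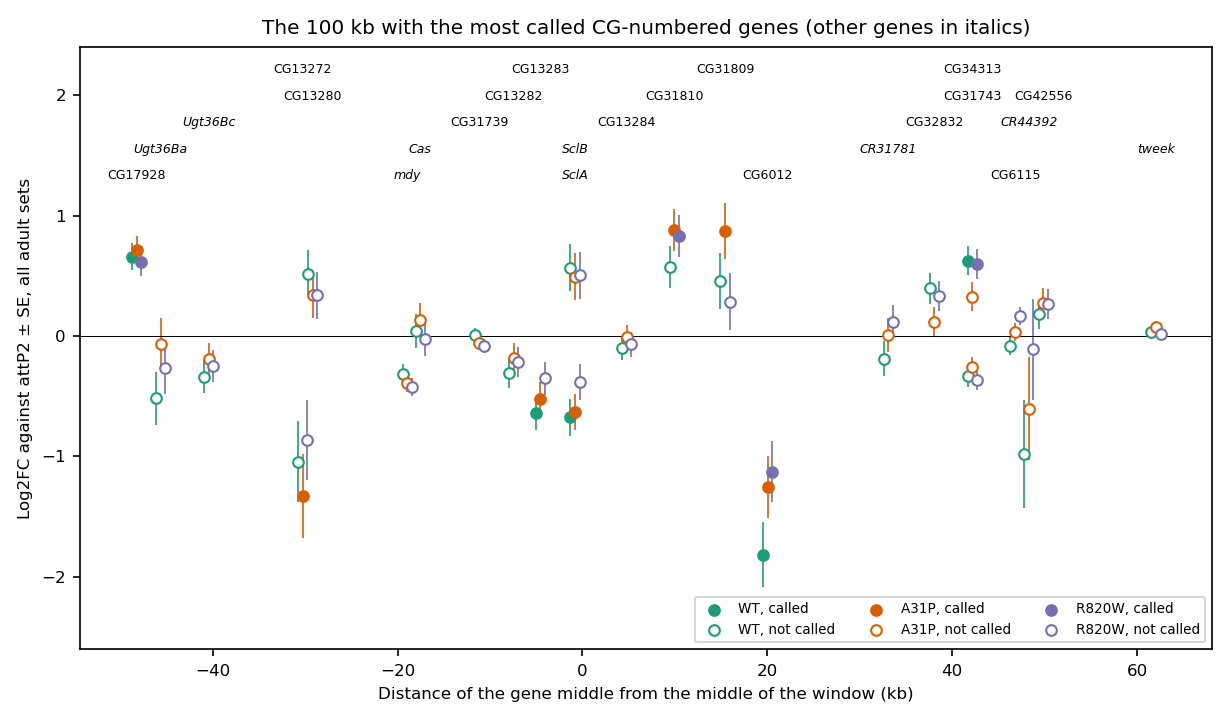
Log2FC ± SE against attP2 over all adult sets (vertical axis) of the tested genes in the 100 kb with the most called CG-numbered genes, by distance of the gene's middle from the middle of the window in kb (horizontal axis). Colours are the 3 lines, filled points are called and names in italics are other genes. Called genes above 0 (CG17928, CG31810, CG31809, CG34313) and below 0 (CG13272, CG13283, CG6012) lie among genes near 0.

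In the fit of all 4 genotypes of a set, more genes were called in males than in females. In nonexercised males 26 genes were called in WT, 24 in A31P and 23 in R820W (backgrounds over all genes 0.97%, 1.07% and 0.679%), and in exercised males 38, 18 and 23 (1.14%, 0.568% and 0.841%). In nonexercised females the counts were 2, 1 and 3 (0.0723%, 0.0994% and 0.127%), and 5, 12 and 6 with the replicate number as a block. In exercised females none was called in WT or A31P and 1 in R820W (0.0747%, 0.112% and 0.112%). At an unadjusted p under 0.05 were 51, 46 and 111, and DESeq2 called 7, 7 and 14. In A31P the 46 were of 854 tested genes, beside 311 of 10712 over all genes. With each line fitted with attP2 alone the order of the sexes was not kept throughout. That fit called 10, 16 and 0 genes in nonexercised females, 5, 8 and 6 in nonexercised males, 2, 12 and 36 in exercised females and 140, 3 and 31 in exercised males. Shares over all genes are not given for these alternatives, or for the unadjusted counts of WT and R820W. With 2 libraries per group, leaving out single libraries moved the counts between 0 and 233 in males and between 0 and 209 in females, where the 209 were those of R820W without its nonexercised females replicate 1.

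For the mean of the 3 lines, 41 genes were called in nonexercised males (3.27% against 1.34% of all genes), 24 of them higher and 17 lower (0.606% and 0.73% of all genes), and 48 in exercised males (3.81% against 1.59%), 23 of them higher and 25 lower (0.561% and 1.03%). These 2 comparisons share no library. Called in both were 26 genes, which is 63.4% of the first list and 54.2% of the second, with the same sign in each. Over all genes 72 were called in both (39.3% and 33.2%). In nonexercised females 4 genes were called (background 0.127%), which were also called in nonexercised males, and in exercised females 3 (0.168%). The 4 were CG16704, CG11034, CG7300 and CG32984, with CG16704 at −1.22 ± 0.14 and CG32984 at 2.57 ± 0.28. Without the 2 exercised male libraries that held most yolk and eggshell RNA, 77, 58 and 43 genes were called over all adult sets in WT, A31P and R820W. The shares of all genes called without these libraries are not given here, so the counts show no change particular to these genes.

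Genes whose 6 line libraries all lay above both attP2 libraries numbered 198 in nonexercised males (15.8% of tested genes, against 9.03% of all genes) and 241 in exercised males (19.1% against 13.3%). Those below both numbered 105 (8.39% against 6.7%) and 153 (12.1% against 9.68%). In females 58 and 60 lay above (6.49% and 7.03%, against 3.23% and 3.5%) and 32 and 50 below (3.58% and 5.85%, against 1.7% and 3.45%). In larvae 174 lay above (14.7% against 7.32%) and 91 below (7.68% against 7.57%). In at least 3 of the 4 adult sets 19 genes lay above (1.47% against 0.45%) and 23 below (1.78% against 0.546%). In all 4 adult sets at once 4 genes lay above (0.31%, against 0.0692%), CG10399, CG17294, CG32984 and CG31810. Below in all 4 were 7 (0.542%, against 0.131%), CG16704, CG11034, CG8372, CG33301, CG7300, CG16879 and CG42876.

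**Figure D5:**
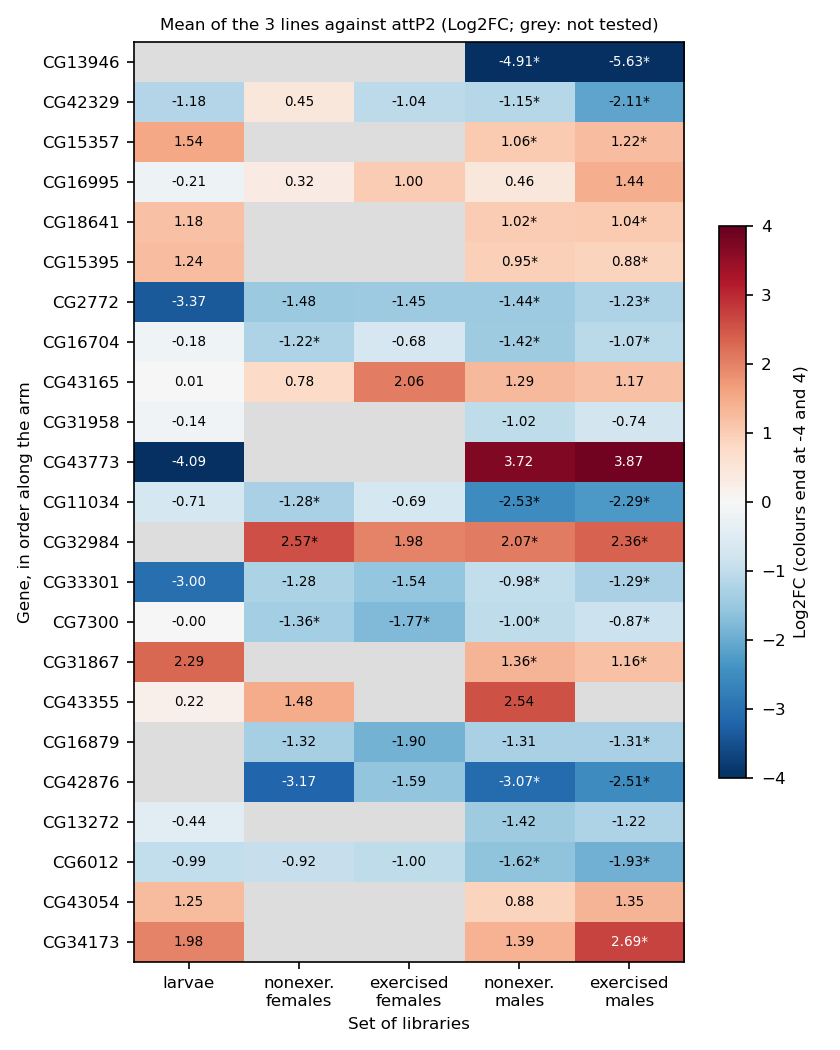
Log2FC of the mean of the 3 lines against attP2 (colour scale) for the 23 genes whose absolute Log2FC exceeded 1 in a line over all adult sets (rows), in each of the 5 sets (columns). Asterisks are called values and blank cells were not tested. CG7300 is called in 4 adult sets, with its calls in females held under 6 of 12 alternatives. CG43773 has values above 0 in males and below 0 in larvae, none of them called, and was not tested in females.

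In larvae no single line gave a call (backgrounds over all genes 0.0233%, 0.0389% and 0.0389% by edgeR). At an unadjusted p under 0.05 were 227, 166 and 80 genes in WT, A31P and R820W, and DESeq2 called 28, 13 and 13. In A31P the 166 were of 1185 tested genes, beside 1068 of 12848 over all genes. Such shares are not given for WT and R820W or for the DESeq2 counts. For the mean of the 3 lines 4 genes were called (background 0.179%), and none was with the replicate number as a block, which in larvae is also the sequencing lane. CG33128, a pepsin-like aspartic peptidase, had 22.6 and 24.6 CPM in attP2, 169 and 142 in WT, 198 and 197 in A31P and 139 and 294 in R820W (Log2FC 3.00 ± 0.32, adjusted p = 0.0378). Adult libraries held at most 10 counts of CG33128. CG31789 fell from 305 and 456 CPM in attP2 to between 91.5 and 162 in the lines (−1.80 ± 0.21). CG15818 fell from 325 and 307 CPM to between 119 and 155 (−1.19 ± 0.14), and CG43348 from 1.75 and 1.85 to between 0.123 and 0.407 (−3.17 ± 0.37).

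Of the 82 genes called over adults 72 were tested in larvae, and 66 of them had the same sign there, 53 of the 59 higher genes and all 13 lower genes. Over all tested CG-numbered genes of 2L 68.5% had the same sign in larvae and adults, over all genes 59.7%, and over all genes of the table called over adults 85.0%. None of the 72 was called in larvae. In 32 of them all 6 line libraries lay beyond both attP2 libraries in the adult direction. Over all genes tested in larvae 7.32% lay above both attP2 libraries and 7.57% below. The share among all genes of the table called over adults was not computed, so the 32 cannot be set against it. The testis markers had a mean-line median Log2FC of 0.90 in larvae (range 0.72 to 1.18), 6 of 11 at an unadjusted p under 0.05, with sums of 259 and 144 CPM in attP2 and 271 to 497 in the lines. The part of this difference in the larval values was not tested.

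Between the 2 mutant lines and WT few genes differed. A31P against WT gave 1 call (background 0.242%), CG11912 (FBgn0031248, 2L 318362 to 319259, minus strand). CG11912 had 11 and 15.9 CPM in WT nonexercised females and 23.9 and 30.5 in A31P, and 6.30 and 4.05 in WT nonexercised males and 10.1 and 12.7 in A31P. In exercised males it had 9.87 and 7.24 CPM in WT against 15.4 and 12.9, and in exercised females 8.34 and 5.66 against 8.52 and 14.2, so that A31P lay above WT in each of the 4 sets. Its Log2FC was 0.86 ± 0.17 (adjusted p = 0.00849), and it was called under 37 of 37 alternatives. CG11912 was more abundant in larvae, with 600 to 847 CPM over all 8 libraries. R820W against WT gave no call by edgeR (background 0.304%) or DESeq2. Of the 1292 tested genes 58 were at an unadjusted p under 0.05.

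The gap between the lines and attP2 differed between the sexes for 11 genes (0.851% against 0.173% of all genes). It was tested as the mean-line Log2FC in males minus that in females. The fall of CG11034 was deeper in males, by −1.38 ± 0.13 (adjusted p = 2.26e-05), and so was that of CG42329 (−1.29 ± 0.20, adjusted p = 0.00287). CG42329 had 12.0 and 14.4 CPM in attP2 exercised males against 2.4 to 3.83 in the lines, but 2.97 and 3.72 in nonexercised females against 3.14 to 5.40. CG9586 was called higher in exercised females (0.77 ± 0.09, adjusted p = 0.026), with 22.6 and 22.8 CPM in attP2 and 35.8 to 43.4 in the lines. In nonexercised females it had 24.4 and 23.8 CPM in attP2 and 32.3 to 39.3 in the lines and was not called (0.57 ± 0.11, adjusted p = 0.17), while males of all genotypes had 14.8 to 25.4 (difference −0.56 ± 0.09, adjusted p = 0.00369). CG4935 went the other way, with 4.22 and 5.19 CPM in attP2 nonexercised males against 7.03 to 8.40 in the lines, while its Log2FC in females was −0.20 (nonexercised) and 0.00 (exercised) and did not pass the test (difference 0.87 ± 0.10, adjusted p = 0.000427). CG3709, higher in females, was called lower in exercised females, with 21.4 and 19.3 CPM in attP2 and 6.89 to 9.82 in the lines, and had 4.26 to 6.63 in nonexercised males (0.87 ± 0.14, adjusted p = 0.00307). With the replicate number as a block no gene was called in exercised females, CG9586 and CG3709 included.

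The gap between the lines and attP2 differed with exercise for 1 gene, CG42329 (background 0.0138%). Its Log2FC was lower in exercised flies by −1.22 ± 0.20 (adjusted p = 0.0368). This call was held under 21 of 37 alternatives and was lost without the 2 exercised male libraries that held yolk and eggshell RNA. Exercised and nonexercised flies were sequenced on different flow cells, so exercise and flow cell cannot be told apart.

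Families on the arm were counted over all adult sets. Of 4 carboxypeptidases, 3 were tested over adults and none was called, with 0, 1 and 1 at an unadjusted p under 0.05 in WT, A31P and R820W and none called by DESeq2. Of 6 pepsin-like aspartic peptidases 4 were tested over adults and none was called, with 0, 1 and 0 at an unadjusted p under 0.05 and none by DESeq2. CG31928, CG31926, CG31661 and CG6508 of this family were higher in females, and in exercised males they had 9.68, 19.3, 7.94 and 3.13 CPM in A31P replicate 2, the male library with most yolk and eggshell RNA. In R820W replicate 2, which came next in that RNA, they had 0.652, 0.552, 0.201 and 0.351 CPM, and in the other exercised male libraries 0 to 0.128. Of 7 neprilysin-like peptidases 6 were tested, and CG13283 was lower in WT and A31P as described, by edgeR and DESeq2 alike. In exercised males CG42370 (Nepl6 in Ensembl) was called lower in A31P (−0.78 ± 0.11, adjusted p = 0.0305) and R820W (−0.75 ± 0.11, adjusted p = 0.0299), and CG13283 in all 3 lines. CG42370 had 38.8 and 36.6 CPM in attP2 exercised males against 20.4 to 27.0 in the lines, with −0.50 ± 0.11 in WT (adjusted p = 0.066), where DESeq2 called it too. In WT exercised males DESeq2 also called 3 of the 3 tested carboxypeptidases and 4 of the 5 mannosidases named next lower, of which edgeR called none. Of 5 lysosomal mannosidases and 4 UDP-glycosyltransferases none was called, with 1, 0 and 0 and 1, 2 and 2 at an unadjusted p under 0.05, and DESeq2 called CG17324 of the second family lower in each line. Of 7 subunits and factors of NADH dehydrogenase and of 6 DIP adhesion proteins of neurons none was called, with 0, 0 and 2 and 0, 0 and 0 at an unadjusted p under 0.05 and none by DESeq2. Of 6 genes of cilia none was called, with 5, 3 and 1 at an unadjusted p under 0.05 and none by DESeq2. Their Log2FC had medians of 0.39, 0.29 and 0.24.

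The 62 higher genes were single-exon in 30.6% and the 20 lower genes in 31.6%, against 21.2% of tested genes with exon annotation. Their median exonic length was 1224 and 1563 bases against 1477, and 40.3% and 25.0% overlapped another gene against 48.5%. Ensembl gave another symbol to 8.06% of the higher genes and 15% of the lower, against 18.6% of those tested. Their median adult level was 9.17 and 3.83 CPM against 14.4. These shares describe the called genes, and no test of them was made.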

How the data were processed

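Total RNA of pooled whole animals was depleted of ribosomal RNA and sequenced from directional libraries. Per the labels and the study's methods, the authors trimmed reads with cutadapt, removed ribosomal reads with TopHat, mapped the rest to the fly genome in CLC Genomics Workbench and deposited raw counts per gene. The table also held 120 normalized columns, which were not used. How reads mapping to several genes were treated and whether strand was used are not given in the sources used here.

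Groups were taken from the labels. Counts were fitted in edgeR 4.0.16 (R 4.3.3, limma 3.58.1) by glmQLFit and glmQLFTest, with TMM factors and filterByExpr (minimum count 10, minimum total 15), for each set of 8 libraries and for the 32 adult libraries with set as a term. Adjusted p-values (Benjamini-Hochberg) covered all genes tested. SE was the absolute Log2FC divided by the root of F. Tests were tried on simulated data. Alternatives were DESeq2 1.42.0, RLE size factors, no filter, the compared groups alone, a replicate block, each library left out and 2 libraries left out together. Tables and figures were made with Python 3.11.15, pandas 2.3.3, numpy 2.4.6 and matplotlib 3.10.9. The members, lists and rules were chosen with earlier results of these data known.

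Genes were named by rule: those with the most extreme called Log2FC in each set and line, the lowest adjusted p over adults, calls in 3 or more sets, the fullest bins, called members of families, members named by the study, members on 1 side of a floor of 3 counts, and interactions. Single genes beyond these were chosen after their values were seen, as were the family lists and the 100 kb window. Some genes that met a rule, CG4822, CG11911 and CG7968 among them, are not described here. Replicate 1 and replicate 2 of larvae and nonexercised adults were sequenced on different lanes, so the number marks a batch there. Deviations of same-numbered libraries correlated at −0.32 to 0.57 in larvae, 0.09 to 0.47 in nonexercised females, −0.08 to 0.11 in nonexercised males, −0.58 to 0.39 in exercised females and −0.13 to 0.63 in exercised males (6 pairs each). The p-values of the fits by set and of the sex and exercise differences measure only the spread between pools. In the fit over all adult sets the spread also takes in differences of the line effect between sets.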

Additional observations from a re-analysis of the deposited data

Results flagged for a closer look

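Differences of the mean-line Log2FC between males and females, and between exercised and nonexercised flies, were tested directly over the 32 adult libraries. The test was edgeR's quasi-likelihood test, adjusted over all genes, and 12 such results on 2L passed. Values are the mean-line Log2FC in males minus that in females unless exercise is named. Lower in males than in females were CG11034 at −1.38, CG42329 at −1.29 and CG9586 at −0.56. For exercise, CG42329 stood at −1.22 in exercised minus nonexercised flies.

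Higher in males were CG5727 (0.77), CG11454 (0.78), CG4935 (0.87), CG3709 (0.87), CG14931 (1.12), CG31817 (1.25), CG42266 (2.04) and CG3544 (2.79). In CG5727, CG4935 and CG14931 the lines were above attP2 in males, with adjusted p of 0.0124, 0.027 and 0.0318 in nonexercised males. In CG11454 and CG3709 the difference lay in exercised females, where Log2FC was −0.98 and −1.26, the first with an adjusted p of 0.0561 in that set. CG31817 had 0.34 to 2.01 CPM in females and 42.5 to 78.0 in males, and its call was lost without attP2 exercised females replicate 1 (adjusted p = 0.0972).

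CG42266 and CG3544 are expressed in males, and in females they stood at no more than 0.575 and 0.371 CPM, which is 12 and 8 counts. Their female values rest on single reads, and the call of CG3544 was lost without attP2 exercised females replicate 1 (0.0888) and that of CG42266 without attP2 nonexercised females replicate 1 or attP2 exercised females replicate 2, at an adjusted p of up to 0.0719.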

How the results depend on the processing

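Of the results for single genes, 7032 kept their direction and their side of the threshold under an alternative, 1081 kept their direction and lost the call, and none reversed. Called under every alternative were 36 of 73 genes in WT, 28 of 43 in A31P and 31 of 46 in R820W, and DESeq2 also called 69, 41 and 46 of these. Over adults the counts with the replicate number as a block were 59 in WT, 35 in A31P and 40 in R820W.

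Counts that moved by over 1.5 times are given for WT, A31P and R820W in this order. They are given without the shares of all genes called under the same alternatives. DESeq2 called 54, 55 and 45 genes in nonexercised males, 16, 17 and 21 in nonexercised females, 78, 49 and 56 in exercised males, 7, 7 and 14 in exercised females and 28, 13 and 13 in larvae. For the mean of the lines it called 14 and 10 in nonexercised and exercised females and 48 in larvae, with 2 for A31P against WT, 18 for the sex difference and 5 for exercise. Groups fitted alone gave 5, 8 and 6 in nonexercised males, 10, 16 and 0 in nonexercised females, 140 (WT) and 3 (A31P) in exercised males, 2, 12 and 36 in exercised females and 1 (WT) in larvae. Without a filter there was 1 in larvae (A31P), 5, 3 and 6 in exercised females, 6, 11 and 7 in nonexercised females, and 10 for the mean of the lines in each female set. With the replicate block the counts were 5, 12 and 6 in nonexercised females, 0 for R820W in exercised females, 20 for WT in exercised males, 0, 7 and 0 for the mean of the lines in larvae, nonexercised and exercised females, and 2 for A31P against WT. Without A31P and R820W exercised males replicate 2 together they were 138, 100 and 86 in exercised males, 104 for the mean of the lines there, 5 for A31P against WT and 0 for exercise. RLE size factors moved no count this far. The most genes in a bin were 8 with bins of 0.5 Mb and 12 with bins of 2 Mb. The cause of these shifts was not tested.

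Leaving out each replicate in turn gave 40 to 105 (WT), 31 to 56 (A31P) and 35 to 55 (R820W) over adults, 1 to 2 for A31P against WT and 0 to 0 for R820W against WT. In nonexercised males the ranges were 2 to 233, 3 to 185 and 1 to 188, in nonexercised females 0 to 10, 0 to 13 and 0 to 209, in exercised males 0 to 115, 1 to 154 and 0 to 81, in exercised females 0 to 1, 0 to 3 and 0 to 4, and in larvae 0 to 2, 0 to 1 and 0 to 1. For the mean of the lines it gave 0 to 12 in larvae, 0 to 13 and 0 to 12 in nonexercised and exercised females, and 14 to 215 and 2 to 92 in nonexercised and exercised males, with 9 to 14 for the sex and 0 to 7 for the exercise difference. Over adults in WT the count fell to 40 without WT exercised males replicate 2, 41 without attP2 nonexercised males replicate 1, 47 without attP2 exercised males replicate 1 and 48 without WT nonexercised males replicate 1. In the female sets 489 (nonexercised) and 529 (exercised) of the 1383 genes had too few reads for a test.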
